A study of Rattus norvegicus with 7 samples.

Results

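The genes described here encode the cytosolic heat shock proteins and their J-domain partners, the chaperones and disulfide isomerases of the endoplasmic reticulum (ER), the CCT chaperonin, the mitochondrial chaperones, and the factors that switch these sets on. Members were taken by symbol: names of the Hsp, Dnaja, Dnajb, Dnajc, Pdia, Cct and Hsf series, and 14 further ER folding and stress genes. The rule found 98 of the 16468 genes kept from the deposited table. Of these, 81 were measured, meaning that they reached 1 FPKM, a fragment count scaled to transcript length and to library size, in at least 1 library. Of the 81, 79 reached it in both libraries and Hspa2 and Hspb3 in the proximal library only. The remaining 17 did not reach it in either.

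RNA came from colon crypts of Sprague Dawley rats aged 14 weeks, from the proximal colon in 1 library and from the distal colon in the other. Each library pooled 7 rats, and the labels name no treatment or genotype for either group. A single library stands for each region, which leaves no replicate error and no test of the regions, so every difference given here is between these 2 libraries. A lower value can come from fewer cells of a type or from less RNA per cell, which cannot be told apart here. Histone and RNA polymerase II libraries of the series were not analysed here.

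Chaperones bind unfolded chains and keep them from sticking together. In the cytosol, HSP70 proteins take clients from J-domain proteins and pass some of them to HSP90, and heat shock factors induce the set when unfolded protein accumulates. In the ER, the HSP70 protein BiP, the HSP90 protein GRP94, the sugar-binding chaperones calnexin and calreticulin, and disulfide isomerases fold proteins that will be secreted or put into membranes. Overload of the ER is sensed by IRE1, ATF6 and PERK, which start the unfolded protein response. Colon crypts hold goblet cells, whose mucus proteins make heavy use of this ER machinery, and IRE1 beta, the product of Ern2, is an ER sensor typical of gut and airway epithelium.

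The ER and cytosolic sets are known to answer to different factors, and the sites of those factors were looked for in the gene promoters. Windows from 250 bases before to 50 bases after the gene start were taken from RefSeq (build GRCr8) and were found by symbol for 75 of the 98 members. Members without a window could not be searched. They include Hspa1b and Hsp90aa1 of the cytosolic class and Manf, Pdia3, Pdia6 and Ero1l of the ER class. The ER stress element, CCAAT and CCACG with any 9 bases between them, is a site bound by NF-Y together with ATF6 or XBP1 and was searched on both strands. It was found in 22 of 33469 windows of the table (0.0657%), belonging to 21 of 27457 genes. Of these genes, 6 were members: Hspa5, Hsp90b1, Calr, Canx, Dnajc3 and Xbp1. Among the ER folding genes with a window, 5 of 16 held it, and among the cytosolic heat shock genes 0 of 26. The matches of all 6 are shown because they lie in ER chaperone genes and in the gene of an ER stress factor, with 15 bases on each side, 5′ to 3′ on the strand of the gene, with the element in capitals. In Calr and in the second Hsp90b1 match it reads in the opposite orientation.
Hspa5: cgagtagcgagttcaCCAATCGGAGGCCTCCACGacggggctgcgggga
Hsp90b1, first match: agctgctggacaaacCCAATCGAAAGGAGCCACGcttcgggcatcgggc
Hsp90b1, second match: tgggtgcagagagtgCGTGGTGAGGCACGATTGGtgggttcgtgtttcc
Calr: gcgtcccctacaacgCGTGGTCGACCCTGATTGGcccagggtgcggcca
Canx: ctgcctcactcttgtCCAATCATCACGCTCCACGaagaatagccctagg
Dnajc3: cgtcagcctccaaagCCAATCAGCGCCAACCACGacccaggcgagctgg
Xbp1: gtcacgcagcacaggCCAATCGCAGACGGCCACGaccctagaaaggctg

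The Hspa5 stretch lies at chr3:38452958-38453006 on the plus strand, and its element begins 43 bases before the gene start. The Xbp1 stretch, at chr14:84604543-84604591 on the plus strand, begins its element 65 bases before the start. The 2 Hsp90b1 elements begin 176 and 72 bases before the start, at chr7:23012436-23012484 and chr7:23012332-23012380 on the minus strand. The others lie at chr19:40213120-40213168 (Calr, plus strand), chr10:35158054-35158102 (Canx, minus strand) and chr15:102432519-102432567 (Dnajc3, plus strand). The shorter UPR element TGACGTGG was present in 0.595% of all windows and in those of 4 members: Hyou1, Dnajc10, Dnajb3 and Dnajc25. It was held by 2 of the 16 ER folding genes with a window and by 1 of the 26 cytosolic heat shock genes, Dnajb3. Its match in Hyou1 lies at chr8:53602676-53602713 on the plus strand and that in Dnajc10, in the opposite orientation, at chr3:85639466-85639503 on the plus strand.
Hyou1: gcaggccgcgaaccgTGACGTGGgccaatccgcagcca
Dnajc10: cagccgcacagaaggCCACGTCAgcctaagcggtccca

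Heat shock elements with 3 units, which alternate GAA and TTC with any 2 bases between neighbours and may begin with either, were found on either strand in 0.798% of all windows and in those of 6 members: Hspa8, Hsph1, Dnaja1, Cct4, Hspd1 and Hspe1. None of the 16 ER folding genes with a window held one, against 3 of the 26 cytosolic genes. The ATF4 composite element TGATGNAAT was present in 1.09% of windows and in none of the 75 members with a window. No element overlapped one of another kind in the members' windows. Examples that lie wholly before the gene start are Hspa8 at chr8:50080444-50080486, Hsph1 at chr12:10427317-10427359 and Hspe1 at chr9:64084247-64084289, all on the plus strand. Hspd1 and Hspe1 point away from each other on chromosome 9, and both matches found for Hspd1 are the same bases as those found for Hspe1, read from the other strand. A match of letters is a description of the sequence only, and these data hold no binding measurement for these factors.
Hspa8: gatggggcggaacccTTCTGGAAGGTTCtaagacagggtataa
Hsph1: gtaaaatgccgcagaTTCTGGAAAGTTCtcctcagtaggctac
Hspe1: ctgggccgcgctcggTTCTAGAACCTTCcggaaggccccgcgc

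Most protein folding genes stood at similar levels in the proximal and the distal library. On the log2((distal FPKM + 1)/(proximal FPKM + 1)) scale, called the log2 ratio below, the 81 measured members had a median of 0.09, against 0.09 over all 9847 measured genes. This scale understates differences of low genes. Of the 81, 71 were less than 1.5-fold apart (87.7%), against 82.7% of all measured genes. On the distal side 1 member, Hspa4l, was higher by 2-fold or more, against 3.71% of all measured genes. On the proximal side there were 2, Dnajb3 and Hspb3, against 3.91%. At 1.5-fold or more there were 6 members on the distal side, against 9.19%, and 4 on the proximal side, against 8.12%. The 6 were Hspa4l, Hspb8, Hspb11, Dnaja4, Dnajc21 and Manf, and the 4 were Dnajb3, Hspb3, Dnajc15 and Atf6. The authors' deposited table tested 82 members and called 1 of them, Hspa4l, higher in the distal library and none higher in the proximal library, where it called 2.73% and 2.69% of all rows tested. These shares of members are near or below the background, so as a set the members were not further apart than other genes.

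**Figure D1:**
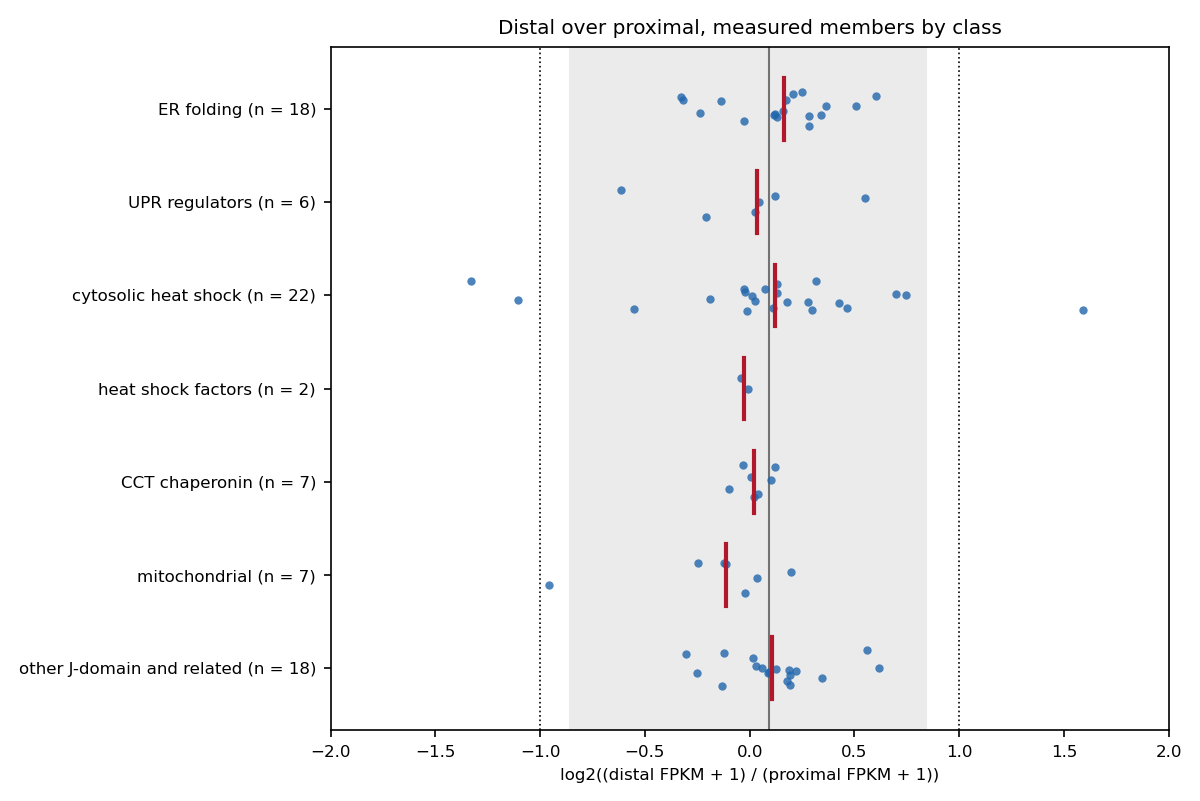
Log2 ratio of distal over proximal (x axis, log2 of FPKM + 1) for measured members by class (y axis); each point is 1 gene, red bars are class medians, the grey line is the median of all 9847 measured genes (0.09), the shaded band runs from their 5th to 95th percentile (-0.86 to 0.84) and dotted lines mark 2-fold. Hspb11, matched by name only, is not drawn; of the 81 measured members, 77 lie in the band, and Hspa4l, Dnajb3, Hspb3 and Dnajc15 lie outside it.

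ER folding genes had the highest summed level of the member classes and differed little between the libraries. Of 20 listed in the table, 18 were measured, with a median level of 54.5 FPKM proximally and 63.0 FPKM distally. Their median log2 ratio was 0.16, with values from -0.33 to 0.60, and 13 of 18 were above 0, or 72.2% against 61.4% of all measured genes. None was 2-fold apart, and Manf was the only one at least 1.5-fold apart. Summed over the class, the level was 2072 FPKM proximally and 2410 FPKM distally, a ratio of 1.16. The sum over all genes kept had a ratio of 1.12.

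The isomerase genes P4hb and Pdia3 and the lectin chaperone gene Calr led the class. P4hb, the protein disulfide isomerase PDI, stood at 390.1 FPKM proximally and 503 FPKM distally. All paired values keep this order. Pdia3, the isomerase ERp57 that works with calnexin and calreticulin, stood at 410.1 and 444 FPKM. Calr, or calreticulin, which holds unfinished glycoproteins in the ER, stood at 406 and 457 FPKM. All 3 were higher in the distal library by less than 1.3-fold, and none differed by as much as the standard error that the test statistic of the authors' deposited table implies (0.47, 0.43 and 0.42 on the log2 scale). Canx, or calnexin, the membrane-bound partner of calreticulin, stood at 112 and 101 FPKM, slightly lower in the distal library. Pdia4 (ERp72) stood at 44.2 and 63.3 FPKM and Pdia5 at 7.49 and 8.23 FPKM. Ero1l, the oxidase that recharges the isomerases, went the other way, at 15.4 and 12.1 FPKM.

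The ER members of the HSP70 and HSP90 families and their cofactors were also close. Hspa5, which encodes BiP, stood at 170.3 and 216 FPKM, or 1.27-fold higher distally. Hsp90b1, which encodes GRP94, stood at 130.1 and 155 FPKM. Among BiP partners, the J-domain genes Dnajb11 (51.8 and 50.8 FPKM), Dnajc3 (57.3 and 62.8 FPKM) and Dnajc10 (47.6 and 40.2 FPKM) lay within 1.2-fold, and Dnajb9 stood at 14.4 and 16.7 FPKM. The exchange factor Hyou1 stood at 30.5 and 34.1 FPKM and Sdf2l1 at 23.9 and 29.3 FPKM. Serp1, which protects new membrane proteins under stress, stood at 74.4 and 90.9 FPKM, and the atypical HSP70 gene Hspa13 at 9.80 and 7.65 FPKM. Manf, which encodes a secreted ER stress protein that binds BiP, was furthest apart at 77.4 and 118 FPKM (1.53-fold). In the authors' deposited table Manf had a log2 change of 0.61 with a q of 0.533, and the implied standard error was 0.35. The 6 genes with an ER stress element, Xbp1 among them, had log2 ratios from -0.14 (Canx) to 0.34 (Hspa5).

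Regulators of the unfolded protein response showed the same closeness for the IRE1 branch. Xbp1, whose spliced product is the factor of that branch, stood at 196 and 199 FPKM. Its splicing is not visible in gene-level values. Ern1, the widely expressed IRE1 alpha, stood at 9.80 and 10.1 FPKM, and Ern2, the gut form IRE1 beta, at 37.3 and 32.2 FPKM. Ern2 was thus 3.81 times as high as Ern1 in the proximal and 3.17 times as high in the distal library, on the length-scaled FPKM.

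The ATF6 and ATF4 genes lay furthest apart among the regulators, in opposite directions. Atf6, a membrane-bound factor that is cut free under ER stress, stood at 29.8 and 19.1 FPKM, or 1.56-fold higher proximally. Atf4, the factor translated when PERK slows protein synthesis, stood at 171 and 250.5 FPKM, or 1.47-fold higher distally. In the authors' deposited table Atf6 had a log2 change of -0.64 (q = 0.298) and Atf4 one of 0.55 (q = 0.507), and neither was called. The implied standard errors were 0.30 and 0.31. Ddit3, the ATF4 target CHOP, stood at 19.9 and 21.8 FPKM and shares its locus in the table with Mars, so its value can hold reads of that gene. Over the 6 regulators the median log2 ratio was 0.03.

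**Figure D2:**
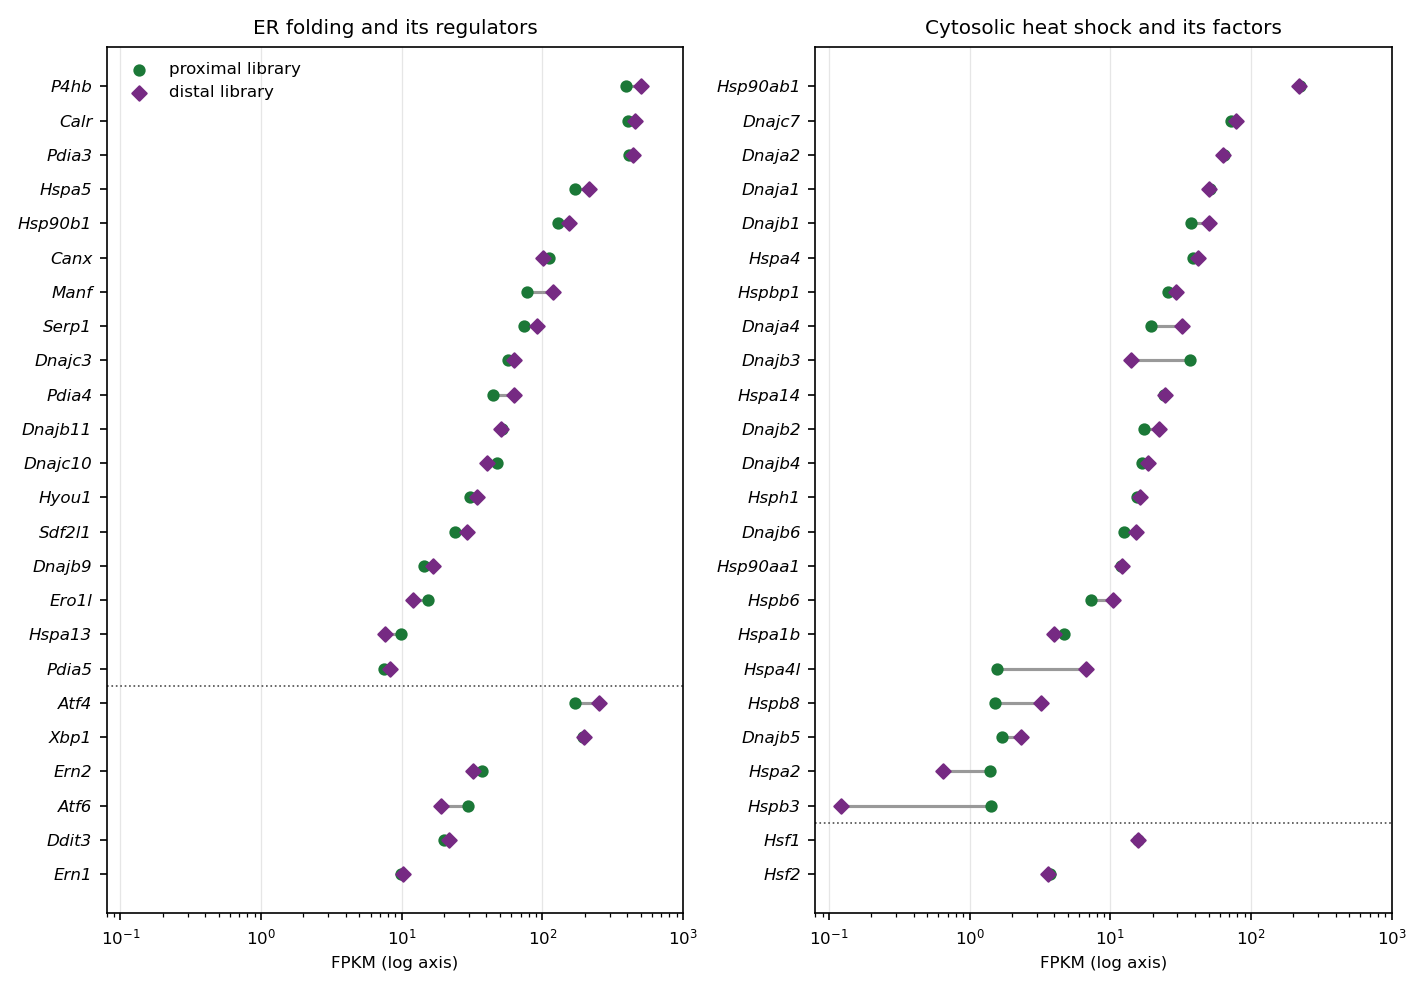
FPKM on a log axis for measured members of the ER folding class and its 6 regulators (left, below the dotted line) and of the cytosolic heat shock class and the heat shock factors (right, below the dotted line); circles are the proximal and diamonds the distal library, 1 library each. Most pairs of symbols touch or overlap, and the widest gaps are those of the low genes Hspa4l and Hspb3 and of Dnajb3.

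As deposited, cytosolic heat shock genes had a lower median level than the ER class and held the members furthest apart. Of 32 listed in the table, 22 were measured, with a median level of 17.1 FPKM proximally and 17.3 FPKM distally. That level is uncertain. Hspa8, which has 33 named pseudogene copies, stood under 1 FPKM, and a row that joins Hspa1a and Hspa1b, at 93.2 and 69.8 FPKM, is not counted. The median log2 ratio of the measured genes of the class was 0.12, with values from -1.33 to 1.59, and 17 of 22 were less than 1.5-fold apart. The ER median exceeded the cytosolic median by 0.044 on the log2 scale. That difference stayed above 0 under the 9 alternatives tried, but ranged from 0.0087 without genes that share a locus to 0.12 with no minimum level. Rescaling the distal library, which is among these alternatives, shifts both medians almost alike and so could hardly move the difference.

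Hspa4l, an HSP110-type gene whose product exchanges nucleotide on HSP70, was the member with the clearest gap. In the rn4 build it spans 127697504 to 127751083 of chromosome 2. Hspa4l stood at 1.56 FPKM proximally and 6.70 FPKM distally, a gap of 4.30-fold. In the authors' deposited table its log2 change was 2.10 (p = 1.45e-05, q = 0.000696), with 0.49 as the implied standard error. Its relatives did not share the gap: Hspa4 stood at 38.5 and 42.3 FPKM and Hsph1 at 15.4 and 16.2 FPKM. Since Hspa4l is a low gene, its log2 ratio of 1.59 became 0.83 when 5 FPKM in place of 1 FPKM were added to each value, and 2.04 when 0.1 FPKM were. Its promoter window held none of the elements searched.

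The 2 members on the proximal side shared their loci with other genes. Dnajb3 stood at 36.7 and 14.0 FPKM, but its locus in the table, on chromosome 9, also holds 8 Ugt1a genes, and its value can hold their reads. One of them, Ugt1a1, stood at 171.6 and 78.4 FPKM. Hspb3, a small heat shock gene known from muscle, stood at 1.41 and 0.122 FPKM within a locus shared with RGD1561161 and with Snx18, which was level at 5.64 and 5.67 FPKM. The authors' deposited table implies standard errors of 2.51 for Dnajb3 and 5.42 for Hspb3 on the log2 scale, each larger than the change it belongs to. Without genes that share a locus, no member was higher proximally by 2-fold on the log2 ratio scale, although Dnajc15 passed 2-fold when the distal library was scaled down to the proximal one, at -1.05 by the median and -1.12 by the upper quartile.

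The HSP90 genes and the most abundant J-domain partners of HSP70 lay within 1.08-fold, while other J-domain genes were further apart. Hsp90ab1, the constitutive cytosolic HSP90, stood at 224 and 220.3 FPKM, and the inducible form Hsp90aa1 at 11.9 and 12.1 FPKM. Dnaja1 stood at 51.2 and 50.2 FPKM, Dnaja2 at 63.9 and 63.3 FPKM and Dnajc7, which links HSP70 to HSP90, at 72.2 and 77.9 FPKM. Dnajb1, the stress-inducible HSP40, stood at 37.4 and 50.6 FPKM (1.35-fold). Dnaja4 was further apart, at 19.6 and 32.4 FPKM, or 1.66-fold higher distally. Its log2 change in the authors' deposited table was 0.73 (q = 0.264), with 0.33 as the implied standard error. Of the other measured J-domain genes of the class, Dnajb2, Dnajb4, Dnajb5 and Dnajb6 were between 1.10-fold and 1.36-fold higher in the distal library, at 1.70 to 22.1 FPKM.

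Inducible HSP70 could not be read from a single row. Hspa1b stood at 4.65 and 3.95 FPKM on chromosome 20 at 3953956 to 3959552, a locus that it shares with a joint row for Hspa1a and Hspa1b. That row, which the authors' deposited table marks as too low in data for a test, stood at 93.2 and 69.8 FPKM, or 1.33-fold higher proximally. The constitutive HSP70 gene Hspa8 stood at 0.498 and 0.620 FPKM only, and the small heat shock gene Hspb1 at 0.596 and 0.388 FPKM. RefSeq names 33 pseudogene copies of Hspa8, 23 of Hsp90ab1, 20 of Hspd1 and 16 of Hsp90aa1, and 24 members have at least 1. Values of genes with near-identical copies are uncertain, since no source used here says how reads with several matches were counted. The other HSP70-type genes were Hspa14, at 24.2 and 24.4 FPKM, and Hspa2, at 1.41 and 0.642 FPKM, which is 2.19-fold higher proximally on the plain values and -0.55 as a log2 ratio. In the authors' deposited table Hspa2 had a log2 change of -1.13 (q = 0.656), with 0.72 as the implied standard error.

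Several of the small heat shock genes are known from muscle. Hspb6 stood at 7.33 and 10.5 FPKM and Hspb8, a partner of the co-chaperone BAG3, at 1.52 and 3.24 FPKM (2.12-fold on the plain values, and 1.68-fold on the log2(FPKM + 1) scale). Hspb2, Hspb7 and Hspb9 were listed at 0 in both libraries. Among 13 markers of smooth muscle and stroma, 12 were in the table and 5 measured, with a summed level of 45.2 FPKM proximally and 56.0 FPKM distally. The 5 measured did not share a direction. Smtn stood at 25.8 and 39.2 FPKM and Des at 0.0398 and 2.91 FPKM, Tagln (3.86 and 4.21 FPKM) and Myh11 (1.36 and 1.37 FPKM) were near level, and Vim stood at 13.6 and 7.07 FPKM. Of the 7 under 1 FPKM, Dcn was at 0 in both. The part of such cells in the Hspb values was not tested. Hspbp1, a nucleotide exchange factor of HSP70, stood at 25.9 and 29.4 FPKM.

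Heat shock factors were level. Hsf1, the main inducer of the heat shock genes, stood at 15.7 and 15.6 FPKM and Hsf2 at 3.75 and 3.61 FPKM, while Hsf4 stood under 1 FPKM in both libraries. The regulation of HSF1 by protein binding and phosphorylation is not visible in mRNA levels.

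**Figure D3:**
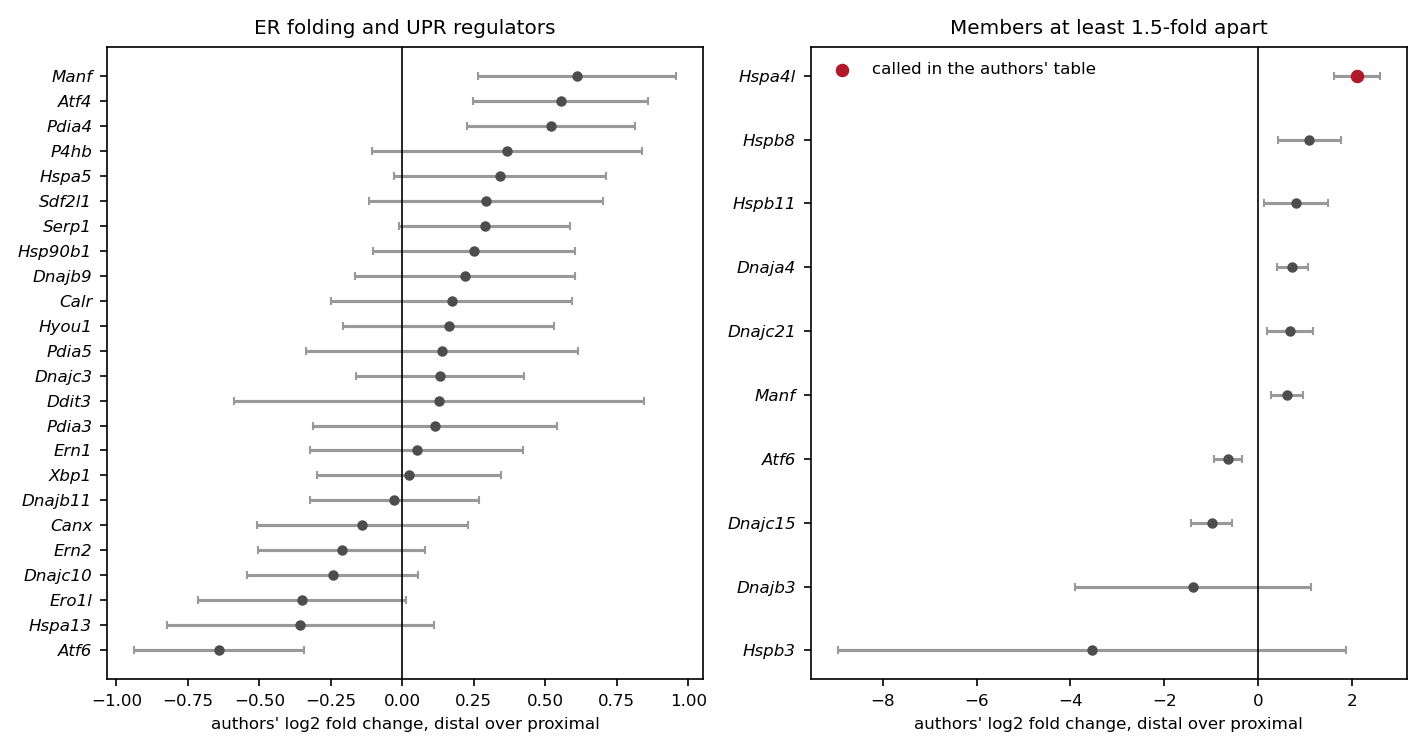
Log2 fold change of distal over proximal from the authors' deposited table (x axis) for the ER folding genes and regulators (left) and for the 10 members at least 1.5-fold apart (right), with bars of 1 standard error as implied by the table's test statistic. Only Hspa4l, in red, was called; the bars of Dnajb3 and Hspb3, which share their loci with other genes, span several log2 units.

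The CCT chaperonin, the ring that folds actin and tubulin, was even between the libraries. Its 7 measured subunit genes had log2 ratios from -0.10 (Cct4) to 0.12 (Cct2). Levels ran from 27.6 FPKM for Cct6a to 108 FPKM for Cct5 in the proximal library, and from 28.1 to 115 FPKM for the same genes in the distal library. Cct2 stood at 88.9 and 96.7 FPKM, Cct4 at 95.8 and 89.4 FPKM and Cct3 at 80.1 and 78.3 FPKM. Tcp1, the remaining subunit of the ring, whose symbol the rule does not match, stood at 27.2 and 30.7 FPKM. Cct6b, a testis form, stood under 1 FPKM in both.

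For mitochondrial chaperone genes the median was -0.11 on the log2 ratio scale, and 5 of the 7 measured were below 0. Hspa9, the mitochondrial HSP70, stood at 112 and 104 FPKM. Hspe1, the HSP10 lid, stood at 123 and 113 FPKM, and Hspd1, the HSP60 barrel, at 26.3 and 22.0 FPKM. In the table the loci of this pair are 289 bases apart. Hspd1 and Hspe1 proteins form 1 machine, while the Hspe1 value was several times that of Hspd1 in both libraries. This gap is uncertain, since Hspd1 has 20 named pseudogene copies and Hspe1 has 1. Dnaja3 stood at 44.8 and 44.1 FPKM, and Dnajc11 at 31.4 and 32.2 FPKM. Dnajc15, a J-domain protein of the mitochondrial inner membrane, was the exception in this class, at 38.2 and 19.2 FPKM, or 1.99-fold higher proximally on the plain values. Its log2 ratio of -0.96 lay just inside the 2-fold line, while Hspb3, at -1.11, lay just outside it. In the authors' deposited table Dnajc15 had a log2 change of -0.99 (p = 0.0244, q = 0.254), with 0.44 as the implied standard error. That table gave a p-value under 0.05 to 4 of the 82 members tested (Hspa4l, Dnajc15, Dnaja4 and Atf6), against 12.3% of all rows tested.

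The remaining J-domain and related genes act in many places, from synaptic vesicles to the spliceosome. Of 21, 18 were measured, with a median log2 ratio of 0.11 and values from -0.30 to 0.62. The highest were Dnajc22, at 51.0 and 58.4 FPKM, Dnajc8, which shares its locus with a microRNA gene, at 47.2 and 47.7 FPKM, and Dnajc5, the cysteine string protein, at 46.1 and 41.9 FPKM. Dnajc9 stood at 24.1 and 27.8 FPKM. Dnajc21, at 7.72 and 12.4 FPKM, was the only one at least 1.5-fold apart on the log2 ratio scale, while Dnajc12, at 4.53 and 7.16 FPKM, stayed just under it. Hspb11, a ciliary transport gene that carries a heat shock name, stood at 5.05 and 8.84 FPKM (1.75-fold).

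Genes that work with the members but fall outside the rule also lay mostly less than 1.5-fold apart. Of 50 genes of ER quality control and translocation listed, 44 were in the table and 39 measured. Their median log2 ratio was 0.21, against 0.09 over all measured genes. Of the 39, 29 were above 0, or 74.4% against 61.4% of all measured genes. Their summed level had a distal over proximal ratio of 1.21, against 1.12 over all genes kept. On the log2 ratio scale none was 2-fold apart in either direction, and 3 were higher distally by 1.5-fold or more. These were Creb3l1, an ER stress sensor of secretory cells, at 152 and 271 FPKM, Herpud1, an ER degradation gene, at 43.4 and 75.2 FPKM, and Trib3. Trib3 stood at 0.998 and 2.33 FPKM, which is 2.33-fold on the plain values and 0.74 as a log2 ratio. The highest were Agr2, an isomerase required for mucus production, at 1409.6 and 1629.5 FPKM, and the prolyl isomerase gene Ppib, at 261 and 339 FPKM. Eif2ak3, which encodes PERK, stood at 32.1 and 28.3 FPKM. Of 28 cytosolic co-chaperones listed, 23 were measured, with a median of 0.13, and all 23 were less than 1.5-fold apart. Ptges3, the HSP90 partner p23, stood at 96.4 and 92.4 FPKM, Pfdn5 at 99.8 and 88.2 FPKM, and Bag3 at 34.1 and 49.1 FPKM.

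Markers of the colon epithelium were high in both libraries, with Epcam at 1489.9 and 1990.5 FPKM. Of 9 measured, 8 were less than 1.5-fold apart and 8 were higher distally, with a median log2 ratio of 0.24 and a ratio of summed levels of 1.28. Goblet cell and immediate early genes were further apart. Of 12 goblet cell markers, 9 were in the table and measured, with a median log2 ratio of 0.83 and a summed level of 3258 FPKM proximally and 6605 FPKM distally. Of them, 4 were higher distally by 2-fold or more, and Spink4 was so proximally. Agr2 and Spdef were only 1.16-fold and 1.17-fold higher distally, so the summed level does not stand for each marker. Creb3l1 and Agr2 stand in both this list and the ER quality control list. The ER folding sum was also higher distally, with a ratio of 1.16 against 2.03 for the goblet and 1.28 for the epithelium markers. The part of goblet cells, or of the share of epithelium, in it was not tested.

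Immediate early genes, which respond within minutes to handling and to growth signals, had a median of 0.73 over 13 measured members, and 4 were higher distally by 2-fold or more, with none past 2-fold on the proximal side. These 4 were Fos, at 108 and 256 FPKM, Jun, at 64.8 and 159 FPKM, Dusp1, at 67.0 and 172 FPKM, and Atf3, also a target of ATF4, at 12.5 and 39.7 FPKM. The highest by mean level were Jund, at 149.8 and 287 FPKM, and Junb, at 137 and 229 FPKM. Summed over the list, the level was 941 FPKM proximally and 1729 FPKM distally. The stress-inducible Dnajb1 (1.35-fold), Bag3 (1.44-fold) and Hsph1 (1.06-fold) were higher distally by less than 1.5-fold, and Dnaja4 was higher distally by 1.66-fold. The joint Hspa1a and Hspa1b row, marked as too low in data for a test, was higher proximally. The part of the immediate early response in the Atf4, Dnaja4 and Dnajb1 values was not tested. Plasma and B cell markers, from cells that also use much ER folding and Xbp1, were at most 8.80 FPKM in the proximal library apart from Sdc1, which the epithelium also expresses. Of 5 measured, 4 were higher there by 2-fold or more, at under 1 FPKM in the distal library. Mzb1 and Tnfrsf17 were listed at 0 in the distal library. Summed over the list, these markers stood at 117 and 102 FPKM, and without Sdc1 at 28.0 and 1.29 FPKM. The sums were 29.7 and 15.6 FPKM for 10 genes listed as markers of T and NK lymphocytes. Of 7 measured, 6 were lower distally, and Cd3g was level at 6.37 and 6.49 FPKM. The largest gap was that of Ptprc, at 8.97 and 1.44 FPKM, a gene that other leukocytes, B cells among them, also express. The part of such cells in the member values was not tested.

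**Figure D4:**
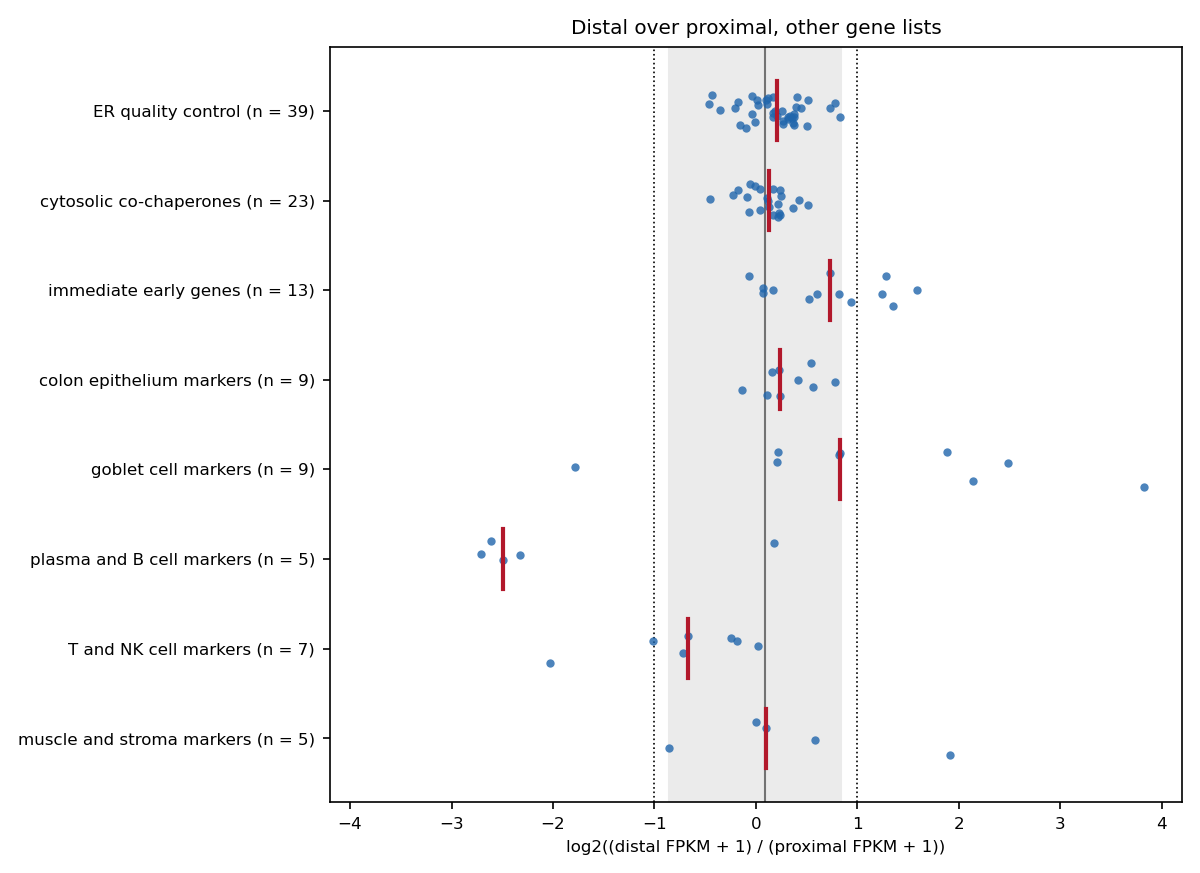
Log2 ratio of distal over proximal (x axis, log2 of FPKM + 1) for measured genes of the lists outside the rule (y axis); each point is 1 gene, red bars are list medians, the grey line and band are the median and the 5th to 95th percentile of all 9847 measured genes and dotted lines mark 2-fold. ER quality control and co-chaperone genes (medians 0.21 and 0.13) lie within 2-fold, while immediate early (0.73) and goblet cell (0.83) genes reach past it.

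The 17 members under 1 FPKM in both libraries were Dnajb7, Dnajb8, Dnajb13, Hspa8, Hspa12a, Hspa12b, Hspb1, Hspb2, Hspb7 and Hspb9 of the cytosolic class, the ER isomerases Pdia2 and Pdia6, and Hsf4, Cct6b, Cct8l1, Dnajc6 and Dnajc27. Pdia6, listed on an unplaced part of chromosome 6 in rn4, was at 0 in both libraries although its relatives Pdia3 and Pdia4 were well measured, so nothing is read from that 0. Altogether 5 members were listed at 0 in both libraries. Dnajc1, Dnajc19, Hspa1l and Hspg2 were not analysed here.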

How the data were processed

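Messenger RNA of colon crypts was measured in 2 libraries, 1 per region, grouped by the sample titles. Per the submitters' processing notes, CASAVA, TopHat2 and the build rn4 go with these samples. The sources used here do not give the program behind the table or total read numbers, so depth is known only through the standard errors below. Expression values deposited by the authors were read as FPKM, because they are not whole and their sums differ (413026 proximal, 463561 distal). Log2 fold changes, p-values and q-values were deposited by the authors and copied unchanged. The ratio of its log2 fold change to its test statistic gave the implied standard error, which does not measure variation between rats and had a median of 0.36 over the members tested.

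Of 16492 rows, 23 without a usable status and 1 repeated row were left out. In the table, end minus start is a multiple of 3 for 1185 of 1186 short olfactory receptor loci, as for starts counted from 0, so 1 was added to each start. In the table, 1312 genes, 10 of them members, share a locus with another gene. Log2 ratios used a pseudocount of 1 FPKM and genes with at least 1 FPKM in 1 library, in Python 3.11.15 with pandas 2.3.3. The script was tested on simulated data. No test was made, since each region had 1 library. Members and lists were chosen with earlier results of these data known. Named with both values were members at least 1.5-fold apart or among the 4 highest of their class, and in other lists those at least 2-fold apart and the 2 highest; further members were named to account for each class, after their values were seen. Alternatives were other pseudocounts, minimums and scalings, adding CCT genes to the cytosolic class, and leaving out genes that share a locus or, added after seeing the data, genes with named pseudogenes.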

Additional observations from a re-analysis of the deposited data

Results flagged for a closer look

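The row that joins Hspa1a and Hspa1b lies outside the comparisons, because the authors' deposited table marks it as too low in data and its name holds both symbols. It nonetheless held a signal, 93.2 FPKM proximally and 69.8 FPKM distally, far above the 4.65 and 3.95 FPKM of the separate Hspa1b row at the same locus.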

How the results depend on the processing

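The median log2 ratio of the ER folding genes, 0.16 as reported, became 0.064 after rescaling that set the all-gene median to 0. With equal upper quartiles it became -0.0041 and the cytosolic median -0.048, while the median of all measured genes moved from 0.09 to -0.06. Relative to the median of all measured genes the ER median lay between 0.041 and 0.14 higher over the 8 alternatives tried, and the cytosolic median between 0.020 lower (-0.020, with the CCT genes added to the class) and 0.061 higher over 9. Members higher distally by 2-fold or more numbered 1 as reported, 2 with 0.1 FPKM as pseudocount, 0 with 5 FPKM, and 6 at a 1.5-fold threshold. On the proximal side they numbered 3 with a pseudocount of 0.1 FPKM and under both rescalings, 1 with a pseudocount of 5 FPKM, 1 with a minimum of 5 FPKM, 0 without genes that share their locus and 4 at 1.5-fold, against 2. The 10 members at least 1.5-fold apart could not change sign under other pseudocounts and scalings, so their constant sign shows nothing. A pseudocount added to both values keeps the sign. The log2 scaling factors, -0.10 by the median and -0.17 by the upper quartile, were smaller than a 1.5-fold gap. Low genes moved far with the pseudocount: between 0.1 and 5 FPKM Hspb3 ran from -2.77 to -0.32 and Hspb8 from 1.04 to 0.34. Precision limits what could be seen: among genes of at least 20 FPKM the smallest log2 fold change called in the authors' deposited table was 0.89 in size. No library could be left out, and no paired analysis was possible because each region had 1 library.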
